A study of Mus musculus with 7 samples.

Results

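The genes described here build the muscle side of the neuromuscular junction, the synapse at which a motor nerve drives a muscle fiber. They are 10 genes, chosen by name from the 31531 genes with deposited values, and all 10 have a row. 5 encode subunits of the muscle acetylcholine receptor (*Chrna1*, *Chrnb1*, *Chrnd*, *Chrng* and *Chrne*), 4 encode proteins that gather the receptors under the nerve (*Musk*, *Lrp4*, *Dok7* and *Rapsn*), and *Ache* encodes acetylcholinesterase, which breaks down acetylcholine. RNA came from muscle fibers of E17.5 fetuses, 4 WT and 3 dyW, with a separate fetus for each library. Both groups came from crosses of heterozygous dyW mice on the C57BL/6 background, so the WT fetuses came from the same colony as the dyW fetuses. The dyW fetuses were homozygous for a disrupted *Lama2* gene, which encodes the laminin α2 chain of the muscle basement membrane, in every tissue and not in muscle alone. The dyW mouse is used as a model of LAMA2-CMD, a congenital muscular dystrophy, and the labels give no treatment for either group. Dispase and collagenase released the fibers from epaxial (back) muscle, and a strainer retained them for lysis, so other cells of the muscle can be in a library.

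Agrin released by the nerve binds LRP4, which activates the receptor tyrosine kinase MuSK, and DOK7 binds MuSK inside the fiber and sustains its activity. Rapsyn, the product of *Rapsn*, holds the acetylcholine receptors together in clusters. In fetal muscle the receptor holds the γ subunit, which is exchanged for the ε subunit as junctions mature. Transcription of several of these genes depends on E-boxes, the binding motif of the myogenic factors such as myogenin, and on N-boxes, which bind GABP in nuclei below the synapse.

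The 250 bases before the transcription start of 4 genes are shown: the α subunit, the fetal and adult subunits that exchange, and the kinase. All 7 genes with a promoter sequence hold an E-box, and these 4 are those that hold the form CAGCTG. The sequences are read 5′ to 3′ from RefSeq promoters of GRCm38.p6, each found once without a mismatch in GRCm39, whose coordinates are given. Capitals mark E-boxes (CANNTG) and N-boxes (CCGGAA) found on either strand.
Chrna1, chr2:73410683-73410932, minus strand: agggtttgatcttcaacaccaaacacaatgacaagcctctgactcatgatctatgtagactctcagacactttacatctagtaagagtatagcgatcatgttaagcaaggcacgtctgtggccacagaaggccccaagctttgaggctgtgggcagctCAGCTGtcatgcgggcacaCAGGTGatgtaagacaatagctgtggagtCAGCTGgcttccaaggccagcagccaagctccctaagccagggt
Chrng, chr1:87133283-87133532, plus strand: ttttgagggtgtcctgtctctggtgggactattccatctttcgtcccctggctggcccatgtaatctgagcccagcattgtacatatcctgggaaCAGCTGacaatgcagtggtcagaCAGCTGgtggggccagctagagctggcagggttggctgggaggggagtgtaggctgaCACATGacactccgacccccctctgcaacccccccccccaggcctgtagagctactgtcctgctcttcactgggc
Chrne, chr11:70510021-70510270, minus strand: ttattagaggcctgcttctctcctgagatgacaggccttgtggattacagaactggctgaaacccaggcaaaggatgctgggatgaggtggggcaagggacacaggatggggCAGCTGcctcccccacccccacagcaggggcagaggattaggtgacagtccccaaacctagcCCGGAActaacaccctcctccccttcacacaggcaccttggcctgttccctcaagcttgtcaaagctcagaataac
Musk, chr4:58285712-58285961, plus strand: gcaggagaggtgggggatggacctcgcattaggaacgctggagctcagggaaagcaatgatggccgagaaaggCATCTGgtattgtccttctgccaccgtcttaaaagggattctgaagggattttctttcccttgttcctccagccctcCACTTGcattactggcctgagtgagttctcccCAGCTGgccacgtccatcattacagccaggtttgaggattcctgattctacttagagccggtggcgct

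Of the 10 genes, 7 have a promoter in the RefSeq table, with 8 windows in all since *Dok7* has 2; *Chrnd*, *Rapsn* and *Lrp4* have none. In windows of 300 bases, from 250 before to 50 after the start, an E-box occurred in 7 of the 8, all but the second of *Dok7*, and in 72.3% of 32544 promoters. The E-box form CAGCTG, which is counted among the E-boxes as well, occurred in 4 of the 8 and in 16.4% of all promoters. The N-box occurred in 1 of the 8, that of *Chrne*, and in 15.0% of all promoters. The *Chrng* start used by RefSeq lies 1154 bases inside the gene as annotated in GENCODE, and those of *Chrna1*, *Chrne* and *Musk* lie 153, 105 and 31 bases inside theirs. A match of letters is a description and does not show that a factor binds there.

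The values are normalized counts, the reads on each gene after division by the size factor of its library. The reads counted on genes numbered 470804 to 2220813 per WT library and 3663905 to 18297106 per dyW library. A single read, 1 step of the values, was worth between 2.05 and 5.33 normalized counts in WT and between 0.0974 and 0.488 in dyW. Where a gene had 0 reads, up to 3 remain possible, and this limit covers counting error only, because the PCR copies of a molecule cannot be told apart. *Lama2* was measured at 90.6, 111, 105 and 107 normalized counts in WT1 to WT4, at 4.29 in dyW1 and 6.07 in dyW2, and at 140 in the library labelled dyW3, above every WT library. That library is part of each dyW value below. The groups overlapped for *Lama2* and did not differ beyond their spread (exact two-sided permutation test, P = 0.286). Its limma adjusted P-value was 0.103. In WT its reads were 1.19 times the median level of odorant and vomeronasal receptor genes given below. The 14 genes of a muscle fiber list, headed by skeletal actin (*Acta1*), took between 0.109% and 1.57% of the reads in WT, 0.392% in dyW2 and 0.307% in the library labelled dyW3, but 0.00700% in dyW1, where 6 of the 14 were at 0 beside 40.4% of all tested genes. In bulk RNA, fewer cells of a type and less RNA per cell cannot be told apart.

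The acetylcholine receptor subunits had between 0 and 22 reads each in a WT library. *Chrna1* lies on chromosome 2 from 73393557 to 73410835 of GRCm39 on the minus strand, where an antisense gene overlaps it as one does *Musk*, *Rapsn* and *Ache*, and encodes the α subunit that binds acetylcholine. Its normalized count in WT1 to WT4 was 10.7, 27.0, 8.21 and 31.5, and it was 0.390, 87.3 and 131 in dyW1, dyW2 and the library labelled dyW3. Both of the latter libraries were above every WT library and dyW1 was below all of them, so the groups overlapped. The WT mean was 19.3 ± 11.6 (SD, n = 4) and the dyW mean 73.0 ± 66.6 (SD, n = 3), a difference smaller than the spread between dyW libraries (exact two-sided permutation test, P = 0.286). The log2 fold change, here and below dyW minus WT of log2(normalized count + 1), was 0.52 with an SE of 1.51 (limma adjusted P-value of 0.815). A fold change on this scale depends on the pseudocount in low genes, and with pseudocounts of 0.1 and 10 that of *Chrna1* was 0.097 and 0.92. Leaving out dyW1 gave 2.61 (limma adjusted P-value of 0.0374), whereas leaving out the library labelled dyW3 gave −0.67 and leaving out dyW2 gave −0.38. The levels of *Chrna1* rest on 2 to 10 reads in each WT library, against 4, 690 and 269 reads in the dyW libraries.

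*Chrnb1*, on chromosome 11 from 69674860 to 69686773, encodes the β subunit. It was measured at 16.0, 53.9, 28.7 and 47.2 normalized counts in WT1 to WT4 and at 9.74, 31.7 and 4.88 in dyW1, dyW2 and the library labelled dyW3. Only dyW2 reached into the WT range. As CPM, the reads scaled to the total on genes in each library, the exact two-sided permutation P of *Chrnb1* was 0.914, against 0.171 for the normalized counts. The means were 36.5 ± 17.3 (SD, n = 4) and 15.5 ± 14.3 (SD, n = 3), with a log2 fold change of −1.42 (SE 0.823, limma adjusted P-value of 0.218).

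*Chrnd* and *Chrng* lie next to each other on chromosome 1, from 87118306 to 87127795 and from 87132379 to 87140416, both on the plus strand. *Chrnd*, for the δ subunit, was measured at 21.3, 16.2, 24.6 and 9.44 normalized counts in WT1 to WT4, at 0 in dyW1 and dyW2, and at 4.88 in the library labelled dyW3. All WT libraries were above all dyW libraries. The mean was 17.9 ± 6.62 (SD, n = 4) against 1.63 ± 2.82 (SD, n = 3) at an exact two-sided permutation P of 0.0571, the smallest value that 4 against 3 libraries allow, with a log2 fold change of −3.31 (SE 0.863, limma adjusted P-value of 0.0177). As CPM, the library labelled dyW3 (2.73) lay above WT4 (1.70), so the groups overlapped, and the exact two-sided permutation P was 0.114. Leaving out 1 library gave log2 fold changes from −4.16 to −2.88. Among these fits *Chrnd* was called only when the library labelled dyW3 was left out, at −4.16 (limma adjusted P-value of 0.00329). There 26.0% of all tested genes were called lower. Without dyW1 and without dyW2 it was −2.88, with limma adjusted P-values of 0.0493 and 0.0623.

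*Chrng*, for the fetal γ subunit, was measured at 10.7, 45.8, 24.6 and 69.2 normalized counts in WT1 to WT4. It was at 2.14 in dyW1, from 22 reads, and at 0 in both other dyW libraries. The groups did not overlap, and the mean was 37.6 ± 25.6 (SD, n = 4) against 0.715 ± 1.24 (SD, n = 3) (exact two-sided permutation test, P = 0.0571). The log2 fold change of −4.43 (SE 0.879, 95% interval −6.42 to −2.43, limma adjusted P-value of 0.00559) passed both thresholds for a call, 0.01 for the adjusted P-value and 1.5 for the absolute log2 fold change. It was the 1 gene of the 10 to do so. Without WT2, WT3, WT4 or dyW2 the log2 fold change was −4.23, −4.53, −4.04 and −4.15, and the limma adjusted P-values of 0.0214, 0.0113, 0.0194 and 0.0234 were above 0.01, so it was no longer called. With WT2, WT4 or dyW2 left out, 0 of all 25791 genes were called. The log2 fold change of *Chrng* was −1.38 with libraries scaled to the same muscle fiber sum, −2.36 after quantile normalization and −3.69 at the same total. The limma adjusted P-values of 0.773, 0.316 and 0.0253 gave no call, where 0, 2 and 0 of all tested genes were called lower.

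*Chrne*, for the adult ε subunit, lies on chromosome 11 from 70505707 to 70510125 and was the least read subunit, with 9 reads over the 4 WT libraries and 4 over the 3 dyW libraries. Its normalized count was 26.7, 8.09, 2.05 and 0 in WT1 to WT4, and 0.390, 0 and 0 in the dyW libraries. WT4 had no read, so the groups overlapped, and the log2 fold change of −2.24 (SE 1.06) had a limma adjusted P-value of 0.137. The γ share of γ plus ε transcripts, taken as reads per kb of exon within a library, does not depend on scaling between libraries. From WT1 to WT4 it took the values 14.5%, 70.5%, 83.5% and 100%, with a mean of 67.1 ± 37.1 (SD, n = 4), and it was 69.9% in dyW1. Neither gene had a read in dyW2 or in the library labelled dyW3, so a share existed in 1 dyW library and no test was possible. WT1 gave 2 *Chrng* reads and 5 *Chrne* reads, and its share of reads has an exact Clopper-Pearson 95% interval from 3.67% to 71.0%, which covers counting error only.

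**Figure D1:**
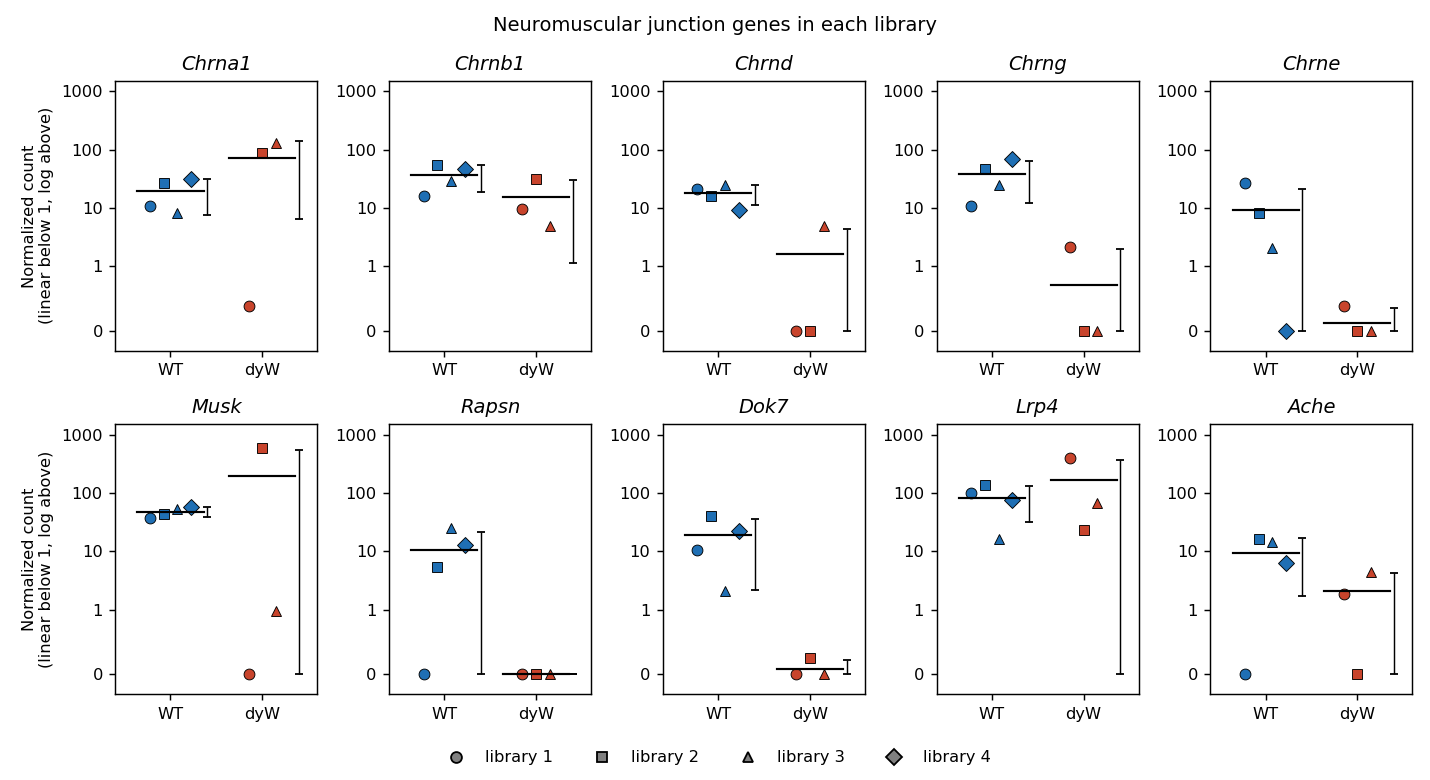
Normalized count of each of the 10 genes in the 4 WT (blue) and 3 dyW (red) libraries, on an axis that is linear below 1 and logarithmic above. Each point is 1 library and its shape gives the library number, the bar is the group mean and the whisker is 1 SD, cut at 0. *Chrng*, *Chrnd* and *Dok7* do not overlap between groups, whereas dyW libraries lie on both sides of the WT libraries for *Chrna1* and *Musk*.

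Among the genes that gather the receptors, *Musk* and *Lrp4* were each high in 1 dyW library. *Musk*, on chromosome 4 from 58285931 to 58377847, was the steadiest gene in WT, at 37.3, 43.1, 53.3 and 56.6 normalized counts. It was at 0 in dyW1, at 591 in dyW2 from 4673 reads, and at 0.977 in the library labelled dyW3 from 2 reads. A single dyW library therefore stood above all WT libraries and the other 2 below all of them. The mean was higher in dyW, 197 ± 341 (SD, n = 3) against 47.6 ± 8.95 (SD, n = 4), while the log2 fold change was negative at −2.19 (SE 1.93, limma adjusted P-value of 0.415), and the groups did not differ beyond their spread (exact two-sided permutation test, P = 0.857). Leaving out dyW2 gave a log2 fold change of −5.09 (limma adjusted P-value of 0.0149), leaving out dyW1 gave −0.49 and leaving out the library labelled dyW3 gave −0.98.

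*Lrp4*, on chromosome 2 from 91287797 to 91344248, encodes the agrin receptor. It was measured at 101, 138, 16.4 and 75.5 normalized counts in WT1 to WT4, and at 402, 23.0 and 67.9 in dyW1, dyW2 and the library labelled dyW3. dyW1 was above every WT library, from 4129 reads, and both others lay inside the WT range. Its log2 fold change of 0.41 (SE 1.08, limma adjusted P-value of 0.797) turned to −0.70 without dyW1 and to −0.23 without WT3.

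*Dok7*, on chromosome 5 from 35213886 to 35246018, was measured at 10.7, 40.5, 2.05 and 22.0 normalized counts in WT1 to WT4, at 0 in dyW1 and in the library labelled dyW3, and at 0.253 in dyW2. All WT libraries were above all dyW libraries, although WT3 gave 1 read. The mean was 18.8 ± 16.6 (SD, n = 4) against 0.0843 ± 0.146 (SD, n = 3), at the smallest possible exact two-sided permutation P of 0.0571, with a log2 fold change of −3.65 (SE 0.938, limma adjusted P-value of 0.0164). Leaving out 1 library gave −4.37 to −3.12. Among these fits *Dok7* was called only without WT3, at −4.37 (limma adjusted P-value of 0.00381), where 20.6% of all tested genes were called lower. Without WT2 it was −3.12 (limma adjusted P-value of 0.0362).

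*Rapsn*, on chromosome 2 from 90865892 to 90876082, had no read in any dyW library. It was at 0, 5.39, 24.6 and 12.6 normalized counts in WT1 to WT4, so WT1 had none either and the groups overlapped. Against a floor of 3 reads in each dyW library, which makes 0.712 normalized counts for the group mean, the WT mean of 10.6 ± 10.6 (SD, n = 4) was at least 15.0-fold higher, at least 31.7-fold higher without the library labelled dyW3 and at least 8.41-fold higher without WT3. This bound takes the WT mean as exact, although it rests on 18 reads and 3 reads in WT1 alone make 16.0 normalized counts. The exact two-sided permutation P of *Rapsn* was 0.229. Its WT reads were 1.25 times the median level of odorant and vomeronasal receptor genes, which was itself lower in dyW, as given below. The log2 fold change of *Rapsn* was −2.78 (SE 1.05, limma adjusted P-value of 0.0728), and leaving out 1 library gave −3.71 to −2.15. Among these fits the gene was called only without WT1, at −3.71 (limma adjusted P-value of 0.00542). There 19.2% of all tested genes were called lower. Without WT3 it was −2.15 (limma adjusted P-value of 0.138).

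*Ache*, on chromosome 5 from 137285781 to 137292728, was measured at 0, 16.2, 14.4 and 6.29 normalized counts in WT1 to WT4 and at 1.85, 0 and 4.40 in the dyW libraries. The log2 fold change of −1.41 (SE 1.12) did not pass (limma adjusted P-value of 0.364).

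**Figure D2:**
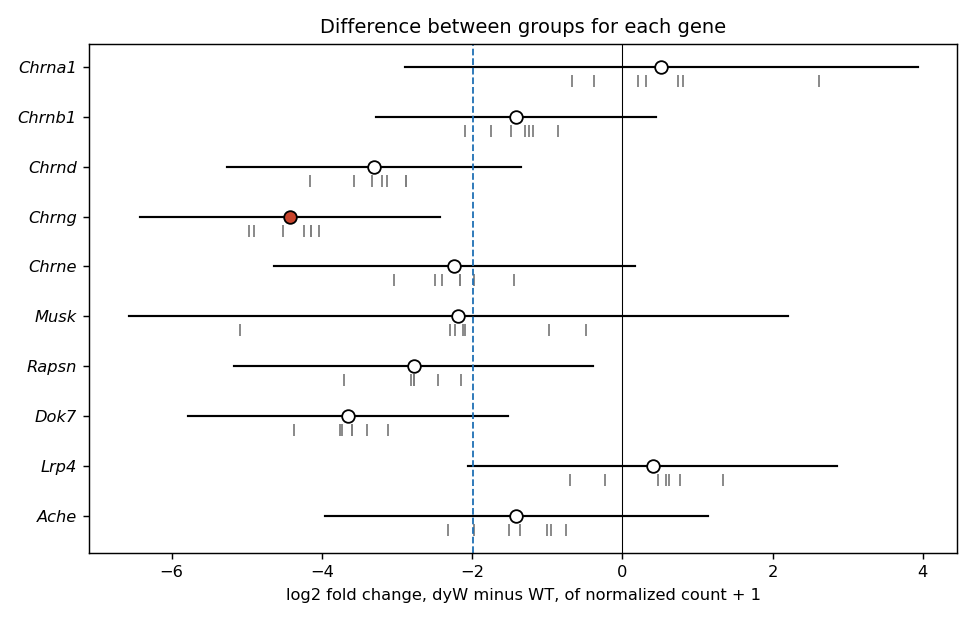
Log2 fold change (dyW minus WT, of normalized count + 1) of each gene with its 95% interval from limma. Grey ticks under each point are the values with 1 library left out, the filled point is the called gene, *Chrng*, and the dashed line is the median of all tested genes, −1.99. 8 of the 10 points are below 0.

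Over the 10 genes, limma called 1 lower in dyW and 0 higher, beside 18.7% lower and 0.0659% higher among all 25791 genes that entered the test. In the low band that holds 8 of the 10, means between 5 and 50, 23.8% of genes were called lower. 4 of the 10 had an unadjusted limma P-value under 0.05, all with lower values in dyW, against 44.3% of all tested genes. With the adjusted P-value limit relaxed to 0.05, *Chrng*, *Chrnd* and *Dok7* were lower, 3 of 10, and 0 were higher, against 29.6% and 1% of all tested genes. In normalized counts, every WT library was above every dyW library for the same 3 genes, as for 31.5% of all tested genes, and the reverse held for 0 of the 10 and for 3.28% of all. The log2 fold change was negative for 8 of 10 genes, against 79.6% of all, and its median was −2.21 against −1.99. These counts lay near the share of all genes. 6 of the 10 (*Chrnd*, *Chrng*, *Chrne*, *Rapsn*, *Dok7* and *Ache*) reached the required mean normalized count of 5 only through their WT values.

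The number of these genes with at least 1 read was 8, 10, 10 and 9 of 10 in WT1 to WT4, and 6, 5 and 6 in dyW1, dyW2 and the library labelled dyW3, although the dyW libraries held more reads. Over all tested genes, between 90.3% and 98.4% had a read in a WT library and between 50.7% and 65.9% in a dyW library. In each dyW library 1 gene took most of the reads of the 10, and it was a different gene each time. It was *Lrp4* in dyW1 with 96.5%, *Musk* in dyW2 with 80.6% and *Chrna1* in the library labelled dyW3 with 61.3%.

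**Figure D3:**
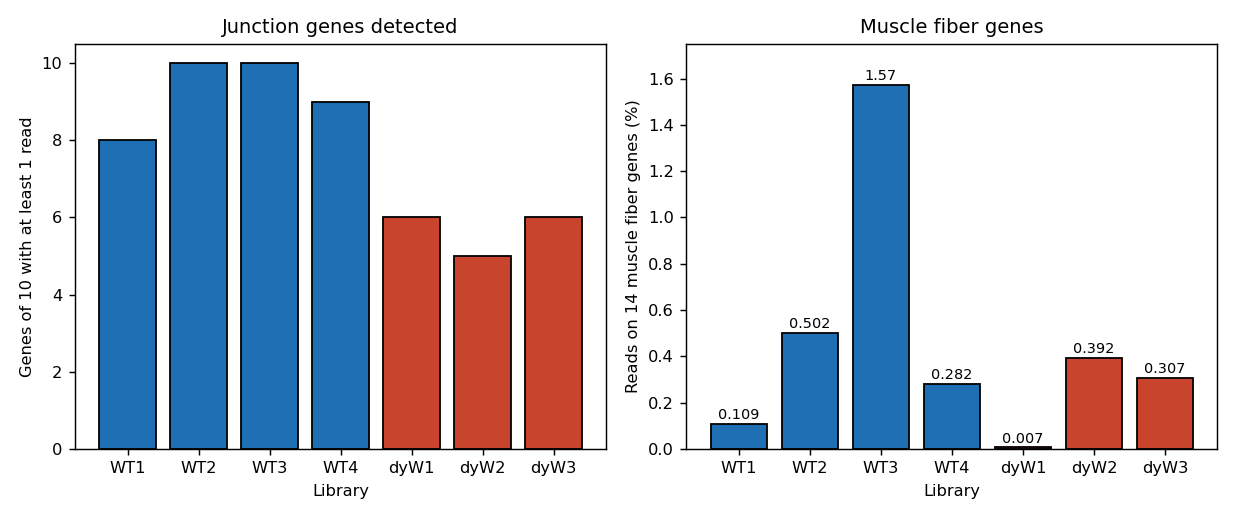
Left, number of the 10 genes with at least 1 read in each library; right, percent of the reads on genes that fell on the 14 muscle fiber genes. WT bars (blue) reach 8 to 10 genes and dyW bars (red) 5 or 6, and dyW1 has 0.00700% of its reads on muscle fiber genes.

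Levels of different genes were compared as normalized counts per kb of exon. In WT the order ran from *Chrnb1* at 14.0 ± 6.64 (SD, n = 4) through *Chrng* at 8.94 ± 6.09, *Lrp4* at 7.69 ± 4.74, *Musk* at 5.66 ± 1.06, *Chrne* at 5.18 ± 6.84, *Rapsn* at 5.01 ± 5.01, *Chrnd* at 4.96 ± 1.83, *Chrna1* at 4.26 ± 2.56 and *Dok7* at 2.70 ± 2.38 to *Ache* at 1.76 ± 1.43. No neighbours in this order differed by more than the larger of their SDs. The median of 1269 odorant and vomeronasal receptor genes, which serve smell in sensory neurons, was 4.90 ± 1.63 normalized counts per kb in WT and 0.178 ± 0.308 (SD, n = 3) in dyW. As reads per kb, that median was 0 in dyW1 and dyW2 and 1.09 in the library labelled dyW3. The mean of the same genes was 2.01, 0.192 and 14.5 reads per kb in these libraries. In WT it was 1.36 to 2.78, where a read is worth more. The median therefore does not describe every receptor gene in dyW.

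Set against that receptor gene level, the 10 genes held 392 reads over the 4 WT libraries where their exon lengths would give 339. The ratio ran from 0.425 for *Ache* to 2.95 for *Chrnb1* with a median of 1.10, and *Chrnb1* alone was above 2. Over all tested genes the median ratio was 1.17 and 23.7% were above 2. The 14 muscle fiber genes had a median ratio of 5.90. After the receptor gene level was subtracted from each library, 0 of the 10 genes and 0 of all 25622 genes tested that way were called, so the count says nothing particular to these genes. That level was 0 in dyW1 and dyW2, so the subtraction changed only the WT libraries and the library labelled dyW3. *Chrng* then had a log2 fold change of −2.73 with a limma adjusted P-value of 0.374. The part of this level in the differences between groups was not tested further.

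**Figure D4:**
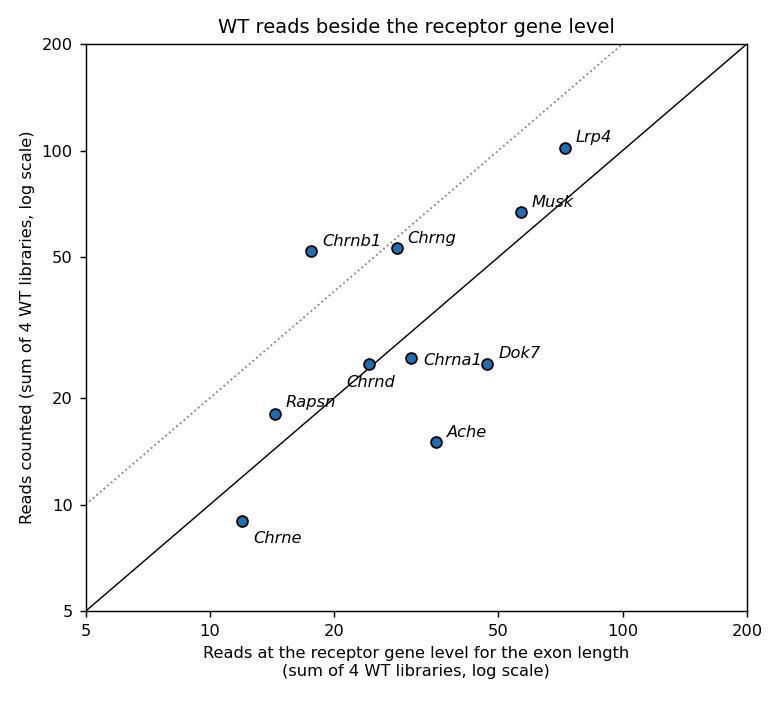
Reads counted on each gene over the 4 WT libraries against the reads that the median odorant or vomeronasal receptor gene would give at the same exon length, both on log scales. The solid line marks equal numbers and the dotted line a ratio of 2, which *Chrnb1* alone exceeds.

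The rest of the pathway was described by 7 further lists with 80 genes, of which 76 were in the table and 75 were tested. 10 were called lower, which is 13.3% and below the 18.7% of all tested genes, and 0 higher. All 10 had a dyW mean under 5 normalized counts and so entered the test only through WT, where a single read is worth the most, and their number is given as a description. A list of 6 genes held nerve-derived signals, their receptors and *Colq*, whose collagen anchors acetylcholinesterase. In it *Colq* was called lower with a log2 fold change of −3.89, whereas *Agrn*, for agrin, was at 80.4 ± 38.7 (SD, n = 4) normalized counts in WT and 85.6 ± 56.1 (SD, n = 3) in dyW. *Erbb4*, a neuregulin receptor, had a log2 fold change of −1.74 with a limma adjusted P-value of 0.404. None of 24 scaffold proteins and MuSK effectors was called, where 1 was lower and 1 higher at an adjusted P-value under 0.05 (29.6% and 1% of all tested genes), and their median log2 fold change was 0.21. The most abundant of them were *Prkar1a*, a regulatory subunit of protein kinase A, at 339 ± 223 (SD, n = 4) and 674 ± 201 (SD, n = 3) normalized counts, and *Macf1*, a cytoskeletal linker, at 220 ± 38.4 (SD, n = 4) and 399 ± 277 (SD, n = 3). None of 20 transcription factors was called, with *Mef2a* at a log2 fold change of 0.12 and *Mef2c* at 1.14, and none of 5 glycosylation enzymes of congenital myasthenia, with *Gfpt1* at 0.57 and *Alg2* at −0.91.

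Genes of the nerve side and the other acetylcholine receptors made up most of the calls. Beside 18.7% of all tested genes and 23.8% of those with a mean of 5 to 50, 4 of 6 tested presynaptic genes were called lower: *Chat*, which makes acetylcholine, with a log2 fold change of −5.19, and the vesicle release genes *Snap25*, *Vamp1* and *Syt2* with −4.94, −4.78 and −4.76. *Chat* held 13, 12, 5 and 21 reads in WT1 to WT4 and none in the dyW libraries. Of 10 neuronal nicotinic subunits, *Chrna2*, *Chrnb2* and *Chrnb3* were called lower with −4.05, −5.16 and −4.97, and *Chrna4* was at −3.80 with a limma adjusted P-value of 0.0194. The muscarinic receptors *Chrm2* and *Chrm3* were called lower with −4.19 and −4.22, while *Chrm1* was at −3.89 (limma adjusted P-value of 0.0693) and *Bche*, for butyrylcholinesterase, at −1.31 (limma adjusted P-value of 0.424). Over the 10 called genes of these lists, the WT reads were between 0.531 and 1.22 times the receptor gene level.

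Marker lists of other cells were summed in each library. Of 6 motor neuron markers in the table, which take in *Chat*, 2 (*Chat* and *Nefl*, a neurofilament) were called lower, beside 18.7% of all tested genes, and both entered the test only through WT. Each dyW library held 4 markers at 0, of which 3 were at 0 in all dyW libraries, and each WT library held 0, where 34.1% to 49.3% of all tested genes had no read in a dyW library; their summed level, 71.8 to 164 normalized counts in WT and 15.6 to 106 in dyW, overlapped between groups. The 7 Schwann cell markers summed to 203 to 349 normalized counts in WT and 77.9 to 777 in dyW, and 5 were at 0 in dyW1. The 7 fibroblast markers took 0.126% to 0.274% of the reads in WT and 1.14% to 1.56% in dyW, with *Pdgfra* at 83.2 ± 37.3 (SD, n = 4) and 305 ± 29.5 (SD, n = 3) normalized counts, and 0 of them were called at the main thresholds, where 2 of the 7 were higher at an adjusted P-value under 0.05 against 1% of all tested genes. The 5 endothelial markers took 0.00720% to 0.0198% in WT and 0.0294% to 0.0899% in dyW. The 5 immune markers, at 0.00425% to 0.0133% in WT and 0.00415% to 0.0128% in dyW, and the 5 myogenic progenitor markers, at 0.00170% to 0.00352% and 0.00283% to 0.00865%, overlapped between groups. The 5 erythroid markers took 0.000637% in WT1 and 0.00102% in dyW1 against 0.961% to 8.62% in the other libraries. Their part in the values of the 10 junction genes was not tested.

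**Figure D5:**
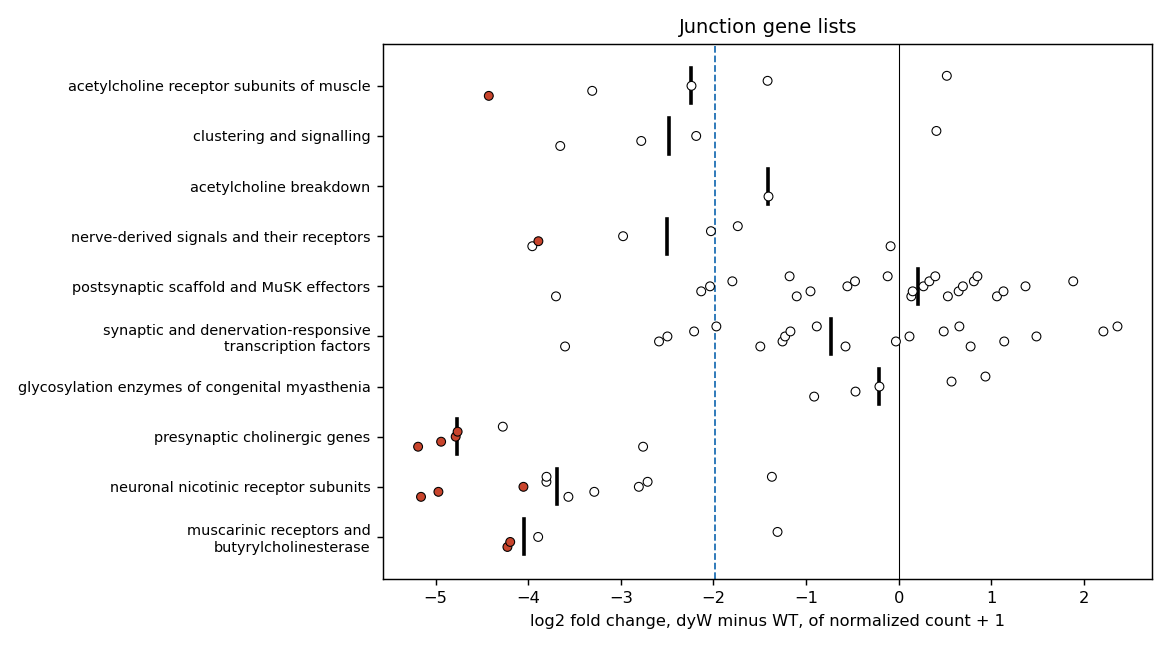
Log2 fold change (dyW minus WT, of normalized count + 1) of each tested gene in the lists of junction genes. Filled points are called genes, black bars are list medians and the dashed line is the median of all tested genes, −1.99. The presynaptic genes have a median of −4.77, and the scaffold proteins and MuSK effectors one of 0.21.

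Genes with a pattern like *Chrna1* were ranked by Pearson's r of log2(normalized count + 1) over the 7 libraries, among 6109 genes with a mean of at least 50. The highest were *Fndc1* at 0.966, *Rbm24*, an RNA-binding protein of muscle, at 0.964, *Cdca8*, a mitotic protein, at 0.959, *Itih5* at 0.958 and *Iqgap2* at 0.955. With 7 points that share library and depth this is a description.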

How the data were processed

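RNA from muscle fibers of 7 fetuses was measured by SMART-seq2, with groups taken from the labelled genotype. The authors used Cutadapt for trimming, RNA STAR for alignment to GRCm39, FeatureCounts for unique reads and DESeq2 for normalization. Versions, annotation and strand setting are not given in the sources used here, so overlapping genes are uncertain. The deposited values are normalized counts; within each library 100% were whole multiples of 1 step (tolerance 0.1 step), from which reads were recovered. The authors' table of fold changes and P-values was not used.

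Genes with a mean of at least 5 were compared on log2(normalized count + 1) by a limma fit (version 3.58.1, moderated with a trend, under R 4.3.3), adjusted after Benjamini and Hochberg; other steps used Python 3.11.15. A call needed adjusted P below 0.01 with an absolute log2 fold change above 1.5. Single genes were also compared by exact two-sided permutation over 35 splits. The fit was tested on simulated data. Coordinates and exon lengths are from GENCODE mouse release M39. Genes, lists, motifs and tests were chosen with earlier results of these data known. Named genes are the 10, *Lama2*, the called genes and the 2 most abundant of each further list, and the 5 most like *Chrna1*; *Pdgfra* was named after its values were seen. 1 gene that this rule names is not reported here. *Slc18a3*, *Mnx1*, *Chrna10*, *Chrm4* and *Chrm5* were not analysed here.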

Additional observations from a re-analysis of the deposited data

How the results depend on the processing

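The number of the 10 genes called lower was 1. It was 2 with a pseudocount of 0.1 (5169 of all 25791 genes), 4 by voom on the recovered reads (23.2% of all), 3 at an adjusted P-value under 0.05 (29.6%), and 0 with a pseudocount of 10, a mean of at least 50 (which left *Musk* and *Lrp4*), quantile normalization, the same total, the same muscle fiber sum, the receptor gene level subtracted, or the replicate block. Leaving out 1 library gave 0 to 2, against 0% to 26.0% of all genes. Of alternatives chosen after seeing the data, leaving out both number 1 libraries gave 0, and leaving out dyW1 and the library labelled dyW3 gave 2 lower and 1 higher, *Musk* (21.6% and 0.353% of all genes); that arm is dyW2 alone, assumed to vary like WT, and restates its level. The log2 fold change turned to 0.44 for *Chrne* and 0.65 for *Ache* (quantile), 1.62 for *Chrnb1* and 1.76 for *Ache* (muscle fiber sum), 0.34 for *Musk*, 0.11 for *Dok7* and 0.97 for *Ache* (receptor level subtracted), −0.47 for *Chrna1* (voom), −0.49 for *Lrp4* (number 1 libraries out), and −1.46 for *Lrp4* and 3.63 for *Musk* (dyW1 and the library labelled dyW3 out). Leaving out 1 library, it ranged from −0.67 to 2.61 for *Chrna1*, −0.70 to 1.34 for *Lrp4*, −5.09 to −0.49 for *Musk*, −2.10 to −0.86 for *Chrnb1*, −3.04 to −1.44 for *Chrne* and −2.32 to −0.76 for *Ache*. The γ share in dyW1 minus the WT mean was 2.78 percentage points, −5.10 with the receptor level subtracted and −14.8 to 13.7 with 1 library left out. The cause of these changes was not tested.

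Over all tested genes the median log2 fold change, −1.99, moved to −1.19 with the same total, −0.15 after quantile normalization, 0.30 with the same muscle fiber sum and 0.31 with the receptor level subtracted. WT4 has no dyW partner and adds nothing to the fit with the replicate block, so its folds are those without WT4: *Chrng* was at −4.04 in both, with a limma adjusted P-value of 0.0665 with the block and 0.0194 without WT4. Deviations of same-numbered libraries correlated at 0.147, −0.0494 and −0.0880, so the numbers were not taken as pairs. Limma called 0 of all tested genes with a pseudocount of 10, a mean of at least 50, the same total, the same muscle fiber sum, the receptor level subtracted, without WT2, WT4 or dyW2, and without both number 1 libraries, where between 1253 and 10626 had an unadjusted P-value under 0.05. The planned negative binomial count models were not run; voom is the test on reads used here. In the WT libraries the 10 genes rest on 9 to 102 reads each.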
